A study of Mus musculus with 6 samples.

Results

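The nuclear genes for the respiratory chain and ATP synthase were examined in developing bile duct cells of the mouse liver. Members were the protein-coding genes whose symbols begin with Nduf followed by a, b, c, s or v and a digit, with Uqcr, with Cox4 to Cox8 or with Atp5, together with Sdha, Sdhb, Sdhc and Sdhd. This gave 84 of the 52550 genes listed: 35 for complex I, 4 for complex II, 8 for complex III, 19 for complex IV (Ndufa4 and Ndufa4l2 counted there), 16 for complex V, and 2 that are not structural subunits, Atp5s and Cox7a2l. RNA was sequenced from liver cells of CD-1 mouse embryos carrying Sox9-GFP, a green fluorescent reporter of Sox9, whose protein is a transcription factor of the duct lineage. Each stage, E16.5 and E18.5, gave 3 libraries (replicates A, B and C), and livers were pooled for every library. At both stages blood-forming cells were removed magnetically, GFP-positive cells were sorted, and a stranded total RNA kit was used. Strain and transgene were the same at both stages, so age was the only labelled difference, which the labels give as embryonic day 16 and 18. SOX9 also marks cells that are not yet mature duct cells, and a pool hides differences between embryos.

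Oxidative phosphorylation takes place in the inner mitochondrial membrane. Complexes I and II pass electrons from NADH and succinate to ubiquinone, complex III passes them on to cytochrome c, complex IV passes them to oxygen, and complex V uses the resulting proton gradient to make ATP. Complex II is encoded wholly in the nucleus, whereas the others also hold subunits encoded by mitochondrial DNA, so that the nuclear genes make up only part of each. All 37 mitochondrial genes are listed at 0 TPM in every library, and the subunits they encode are not described here.

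Values are TPM, a unit that scales reads by exon length and then to a fixed total in each library. Reads recovered from the TPM numbered 23193502 to 26206324 per library at E16.5 but 13093911 to 22643826 at E18.5. The labelled cell type was checked on 12 cholangiocyte markers: their summed level was 768 to 2536 TPM at E16.5 against 8058 to 13947 TPM at E18.5. Of these, 9 of 12 rose, where 26.0% of all genes tested did. The sum of 12 hepatoblast markers went from 163849 to 206038 TPM at E16.5 to between 37470 and 88315 TPM at E18.5, with 8 of 12 falling. All 12 megakaryocyte markers fell, from sums of 3551 to 10200 TPM to sums of 108 to 818 TPM. Of all genes tested, 5.22% fell. Most of the hepatoblast sum was Alb, for albumin, with 117854 to 148077 TPM at E16.5 and 30024 to 70152 TPM at E18.5. None of the markers in these lists was at 0 throughout. In such bulk samples fewer cells of a type and less RNA per cell cannot be told apart. The part of these markers in the results on respiratory genes was not tested.

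All but 3 of the 84 members averaged at least 1 TPM and were tested. Of the 84, 25 averaged 100 to 1000 TPM, 47 averaged 10 to 100 TPM, 9 averaged 1 to 10 TPM and 3 were below 1 TPM. The ATP synthase catalytic head led the order at both stages. Atp5a1, its alpha subunit, stood at 812 ± 27.4 TPM (SD, n = 3) at E16.5 and then 746 ± 13.6 TPM at E18.5. Atp5b, the beta subunit, followed with 603 ± 23.0 and 487 ± 22.5 TPM, and Cox6b1, a complex IV subunit facing the intermembrane space, with 364 ± 12.1 and 372 ± 7.62 TPM. The intervals of mean and SD of these 3 neighbours did not meet at either stage. Together the 84 members took 0.816, 0.787 and 0.790% of all TPM at E16.5 (replicates A, B and C in order, as in every such series of values) against 0.745, 0.739 and 0.757% at E18.5, so that every E18.5 library lay below every E16.5 library.

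**Figure D1:**
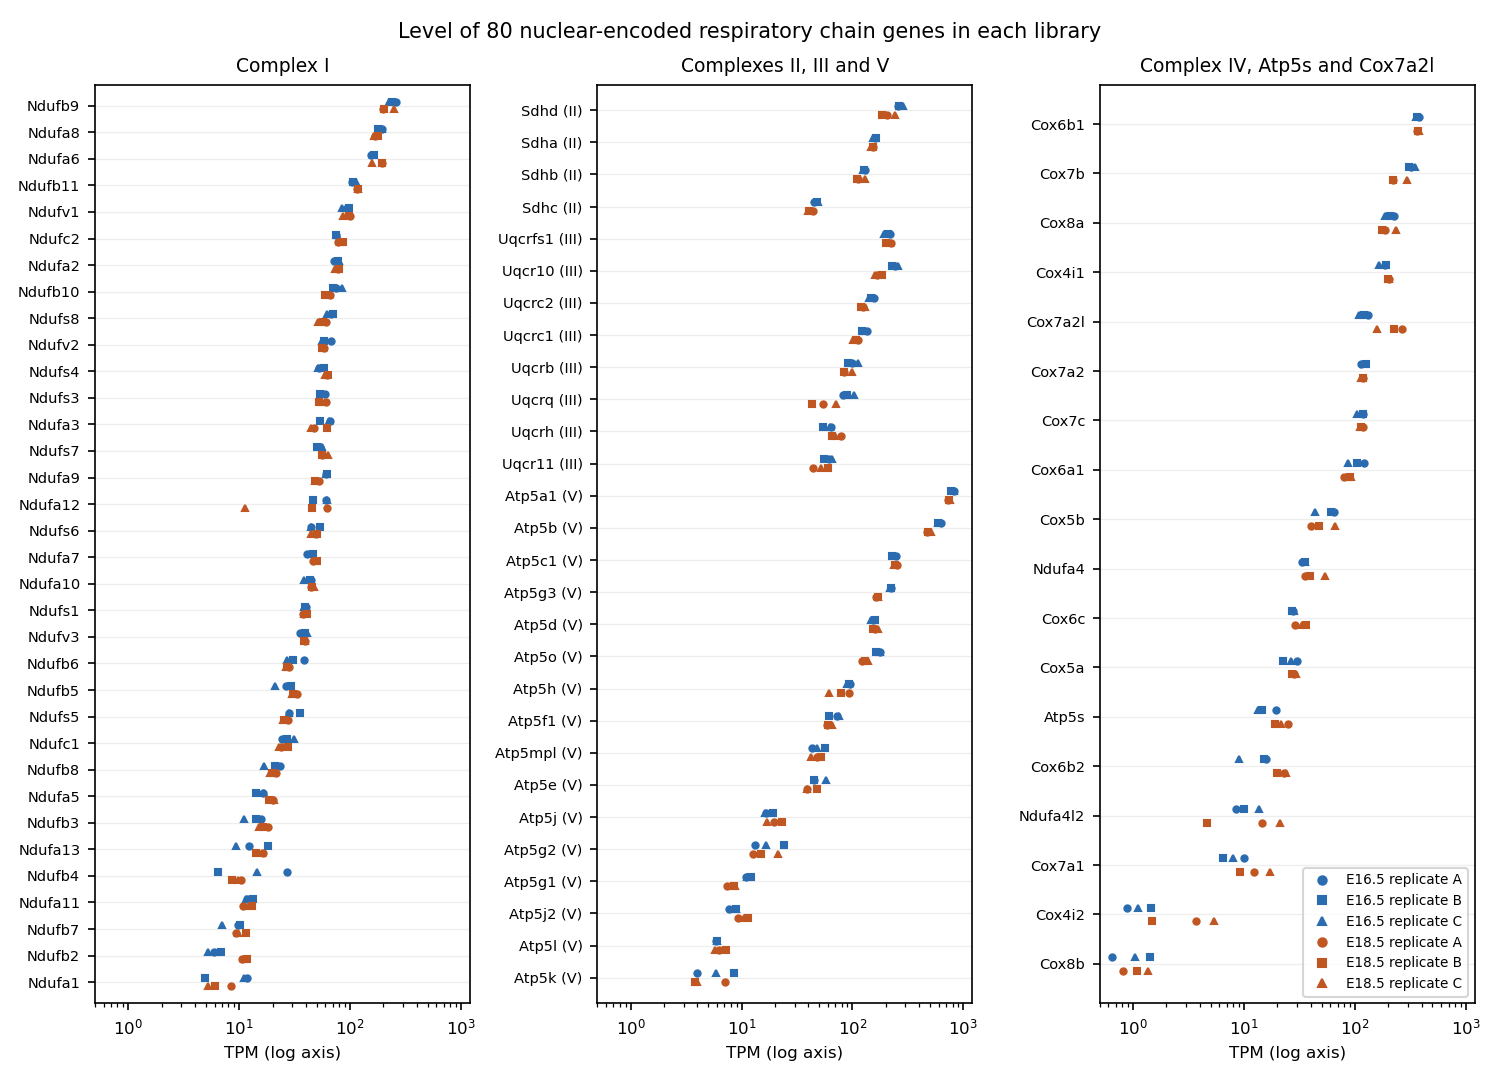
Level of 80 of the 81 members that averaged at least 1 TPM, on a log axis of TPM, with 1 symbol per library (blue E16.5, orange E18.5; circle, square and triangle for replicates A, B and C). Atp5a1 and Atp5b are the highest, and Ndufa12, Ndufb4, Ndufa4l2 and Cox4i2 show wide scatter within a stage.

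Levels within a stage were tightly grouped. The median within-stage SD of log2(TPM + 1) was 0.12 over the members, against 0.20 over protein-coding genes of 5 to 1000 TPM. These sets were not matched for level. The highest library of a stage was at most a median of 1.23 times the lowest over the 81 members, and 7 members exceeded 2 times. Ndufa12, an accessory subunit of complex I, was the widest, with 62.1, 45.8 and 11.3 TPM at E18.5. Replicate C stood alone there: the log2 fold change of Ndufa12 was -0.79 ± 0.56 (SE) with it and -0.07 without it. Ndufb4 read 27.0, 6.47 and 14.5 TPM at E16.5, and its log2 fold change of -0.48 became -0.02 without replicate A and -0.97 without replicate B of that stage. Neither gene passed the test in any of these fits. Annotated copies of at least 98% identity cover 36.2% of the Ndufa12 transcript and 40.2% of that of Ndufb4.

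The stages were compared with limma on log2(TPM + 1) over 22452 genes averaging at least 1 TPM, with an adjusted p (Benjamini-Hochberg) under 0.05 as the threshold. Most respiratory genes stayed near 0 on the log2 scale, while the median of all genes was higher. Of 81 members, 2 rose (2.47%, against 26.0% of all genes tested), 4 fell (4.94%, against 5.22%) and 75 did not pass. The share that fell was thus close to that of all genes, and the share that rose was far lower. At an unadjusted p under 0.05 there were 5 higher and 11 lower. Counts at an unadjusted p, here and below, were made over the members only, so no share of all genes stands beside them. The median log2 fold change of the members was -0.01, against 0.42 over all genes, and 63 of 81 lay within 0.3 of 0. Over all 81 the median SE was 0.13. Without overlap between the stages, 15 members stood above (45.0% of all genes did) and 16 below (8.30% did). P-values measure only the spread between these libraries.

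**Figure D2:**
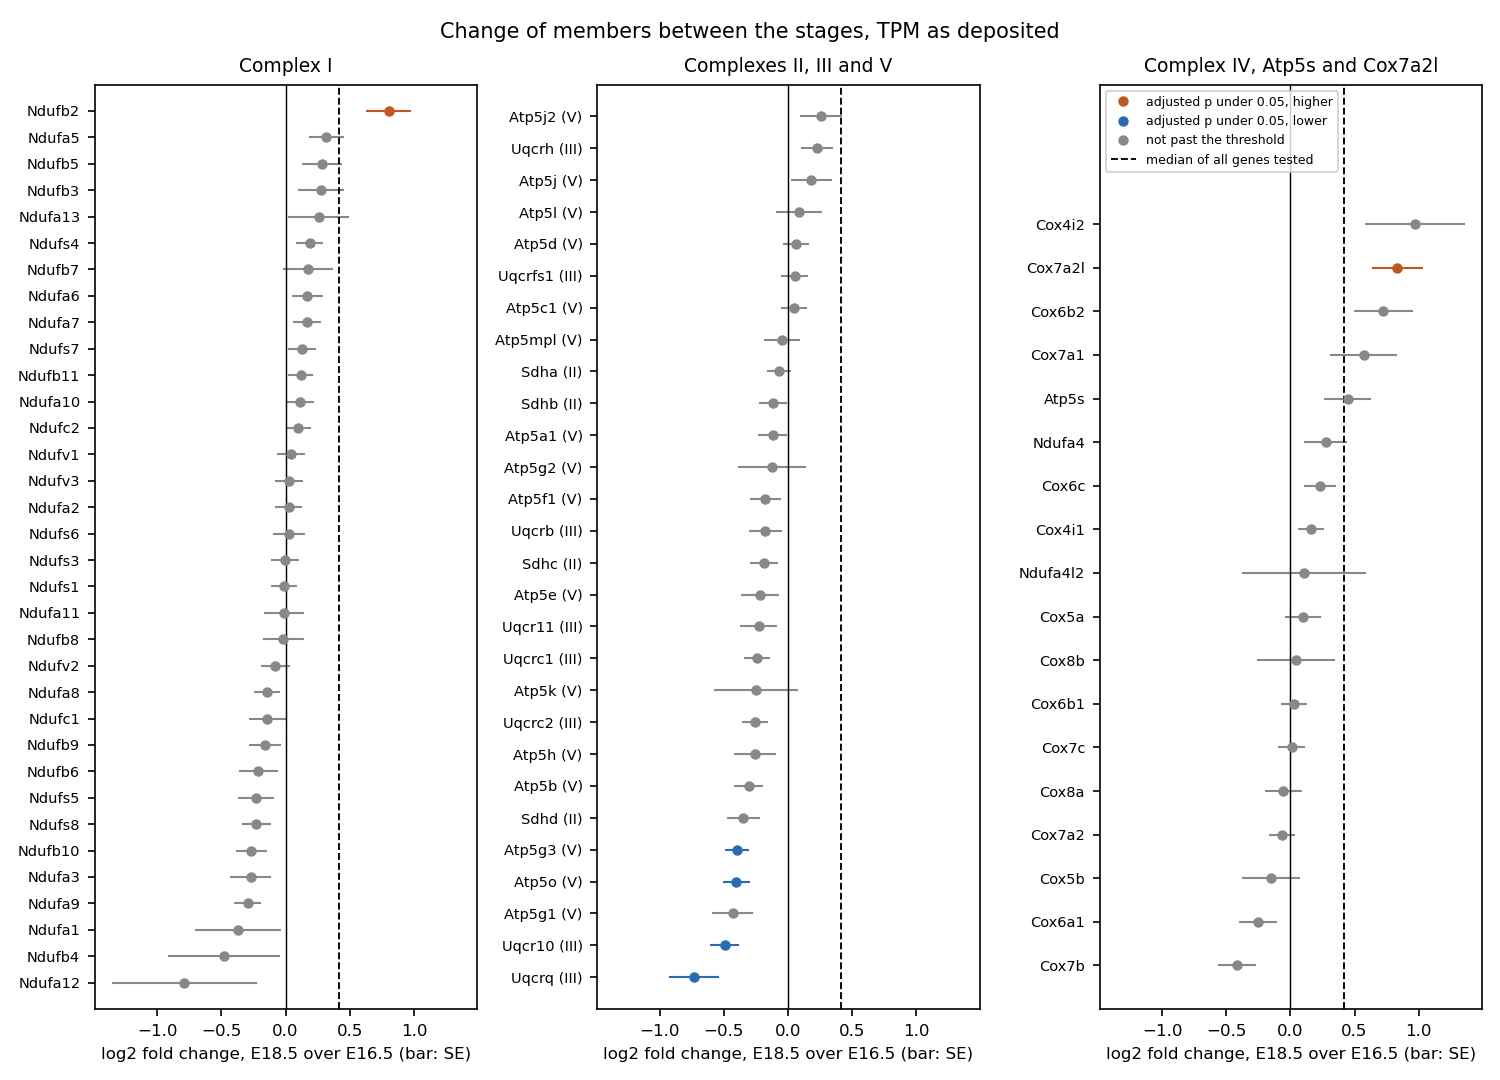
Log2 fold change of 80 of the 81 tested members, E18.5 over E16.5, with its SE from limma, in panels by complex; the dashed line is the median of all genes tested, at 0.42. Of the 80 drawn, 74 lie left of the dashed line, and the 6 coloured ones passed the test.

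How these changes read depended on the scaling between libraries. TPM were compared as deposited, and on that scale the median gene was 0.42 higher at E18.5. Median-of-ratios scaling, which sets the median gene equal, brought the median of all genes to 0.01 and that of the members to -0.47. On that scale limma called 0 members higher (1 at an unadjusted p under 0.05) and 37 of 81 fell (45.7%, where all genes had 6.44% higher and 10.5% lower): 14 of complex I, 4 of complex II, 5 each of complexes III and IV, and 9 of complex V. Of the cholangiocyte markers, 5 of 12 rose on that scale. Quantile normalization gave 1 higher and 18 lower (background 8.53% and 8.37%), and limma voom on recovered reads gave 1 higher and 11 lower of 66 members (background 20.5% and 6.67%). The distance between the members and all genes moved less: their median lay 0.43 below that of all genes as deposited, 0.48 below under median-of-ratios scaling and 0.35 below under quantile normalization. Of 81 members, 75 lay below the all-gene median as deposited and 76 under each of the other scalings of TPM.

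**Figure D3:**
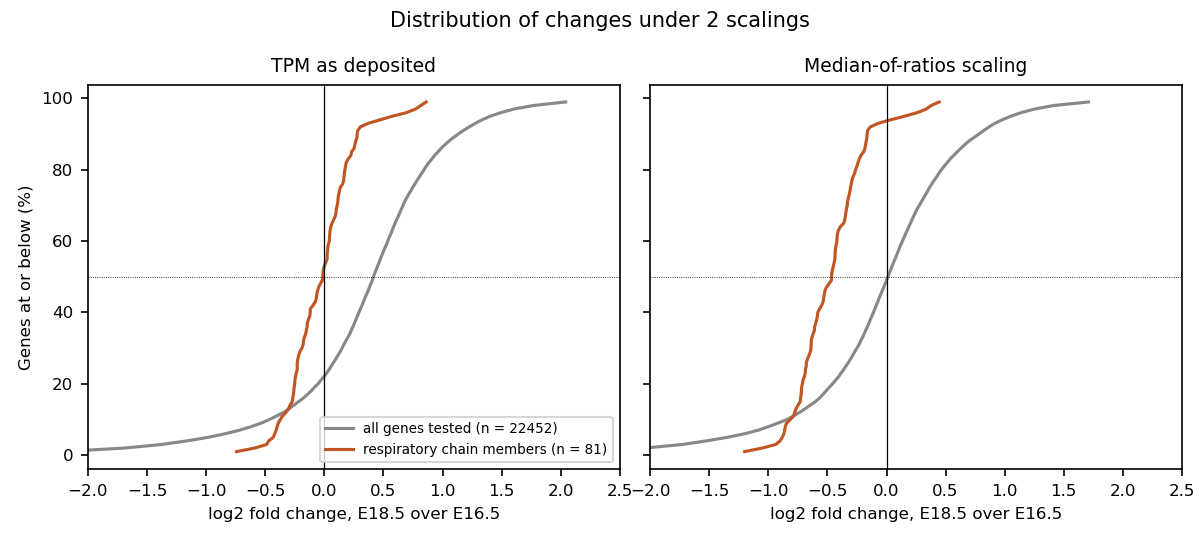
Cumulative share of genes (%) at or below each log2 fold change, E18.5 over E16.5, drawn from the 1st to the 99th percentile, for 81 members (orange) and all 22452 genes tested (grey) under both scalings. The orange curve is steeper and lies to the left of the grey curve through most of its height in both panels, and its median is near 0 as deposited and near -0.47 under median-of-ratios scaling.

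By complex, the medians of log2 fold change were 0.02 for complex I, -0.15 for complex II, -0.24 for complex III, 0.07 for complex IV and -0.15 for complex V, and under median-of-ratios scaling all 5 were negative, from -0.70 for complex III to -0.33 for complex IV. For complexes II, III and V, every E18.5 library had a median below every E16.5 library. For complexes I and IV the libraries of the stages overlapped. The cytosolic ribosomal protein genes, another large group of abundant nuclear transcripts, had a median of 0.33 over 96 genes as deposited. The mitochondrial ribosomal protein genes had one of 0.10 over 76. Under median-of-ratios scaling both medians were negative too, at -0.13 for the cytosolic and -0.34 for the mitochondrial group. Differences between these groups were not tested.

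**Figure D4:**
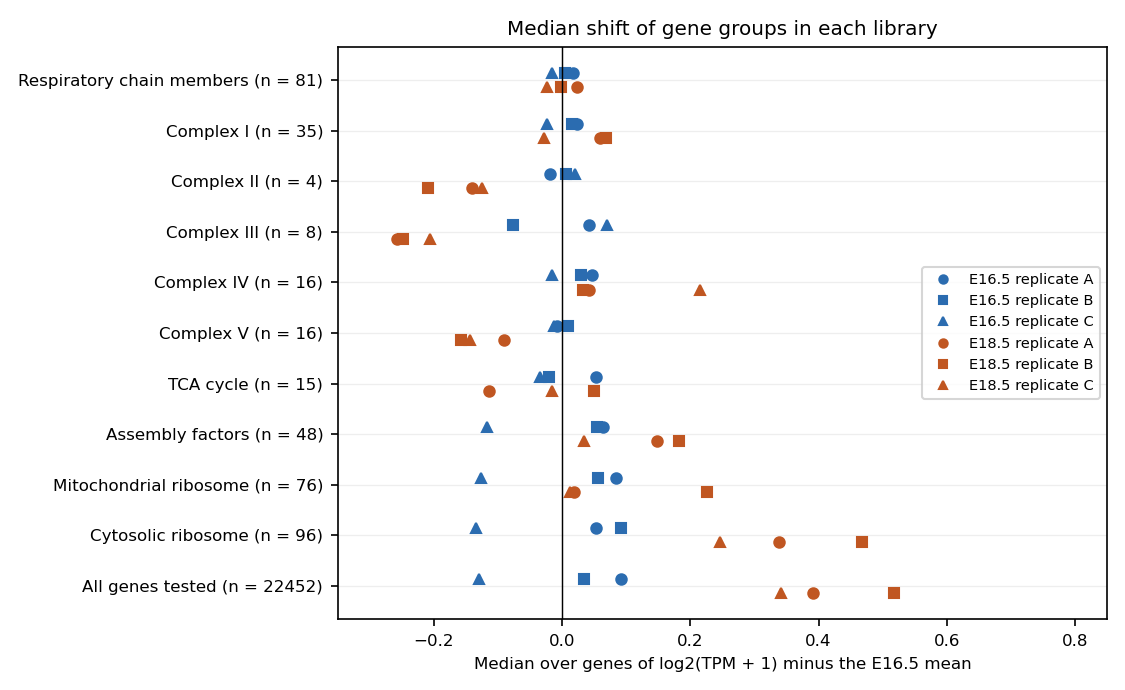
Median over the genes of each group of log2(TPM + 1) minus the gene's E16.5 mean, with 1 symbol per library (blue E16.5, orange E18.5). The members as a whole stay between -0.02 and 0.02 in every library, complexes II, III and V sit lower in all 3 E18.5 libraries, and all genes tested sit between 0.34 and 0.52 at E18.5.

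Complex I oxidises NADH and is the largest complex of the chain. Its summed level was 2128, 2071 and 2046 TPM at E16.5 and then 2086, 2083 and 1979 TPM at E18.5, which overlap. None of the 6 core subunits described here passed the test on the deposited scale, nor had an unadjusted p under 0.05 there, whereas Ndufs8, Ndufv2, Ndufs1 and Ndufv1 fell under median-of-ratios scaling (adjusted p = 0.0129, 0.0187, 0.0264 and 0.0291). Ndufv1, which binds NADH, was the highest of these 6 with 92.1 ± 6.36 TPM at E16.5 against 94.8 ± 6.77 TPM at E18.5, and Ndufs1, which carries iron-sulfur clusters, the lowest with 39.3 ± 0.838 and 39.0 ± 1.49 TPM. Ndufv2, the partner of Ndufv1, stood at 60.4 ± 5.86 and 56.8 ± 1.07 TPM. Ndufs3 (56.7 ± 2.82 and 56.5 ± 3.77 TPM) and Ndufs7 (53.4 ± 2.51 and 58.4 ± 3.95 TPM) overlapped the levels of Ndufv2. Ndufs8 had a log2 fold change of -0.23 ± 0.11 (adjusted p = 0.154), with 66.8, 70.3 and 62.0 TPM at E16.5 and then 60.6, 57.3 and 51.7 TPM at E18.5.

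Ndufb2, a small accessory subunit of the membrane arm, was the 1 member of complex I that rose. It lies at chr6:39592574-39603382 on the forward strand (GRCm38). Its level was 5.88, 6.88 and 5.23 TPM at E16.5 against 10.7, 11.8 and 11.0 TPM at E18.5. Every E18.5 value exceeded every E16.5 value, with a log2 fold change of 0.80 ± 0.17 (SE, adjusted p = 0.0187). Under median-of-ratios scaling the change was 0.39 with an adjusted p of 0.103, and under quantile normalization 0.37 with one of 0.125. Leaving out E18.5 replicate A or B gave adjusted p values of 0.0633 and 0.0590. The other 34 members of complex I lay between -0.79 and 0.32 on the log2 scale. Of the 35 members of complex I, 8 stood above without overlap (where 45.0% of all genes did) and 4 below (8.30% of all genes), among the latter Ndufa9, next to the quinone site, with 60.3, 62.5 and 60.4 TPM at E16.5 against 53.0, 48.1 and 47.9 TPM at E18.5.

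Complex II, succinate dehydrogenase, also belongs to the citric acid cycle. All 4 subunits had negative log2 fold changes, and none passed in limma on the deposited scale (1 had an unadjusted p under 0.05), whereas all 4 fell under median-of-ratios scaling. Sdhd, a membrane anchor, read 258, 260 and 285 TPM at E16.5 and then 206, 186 and 241 TPM at E18.5, without overlap, for a log2 fold change of -0.35 ± 0.13 (adjusted p = 0.0751). Sdhc, the other anchor, read 44.6, 47.9 and 49.3 TPM and then 43.9, 40.6 and 39.4 TPM, also without overlap. Sdha, the flavoprotein, went from 159 ± 5.37 to 151 ± 3.10 TPM and Sdhb, the iron-sulfur subunit, from 127 ± 2.1 to 117 ± 10.8 TPM, with overlap. The order Sdhd, Sdha, Sdhb, Sdhc held in every library.

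Complex III, the cytochrome bc complex, held both of the steepest called falls, in small subunits beside the catalytic ones. Uqcrq (chr11:53427922-53430831, reverse strand) read 82.7, 89.3 and 104 TPM at E16.5 against 54.2, 42.7 and 70.9 TPM at E18.5. All E18.5 libraries lay below all E16.5 libraries, for a log2 fold change of -0.73 ± 0.19 (adjusted p = 0.0315). Leaving out any library other than E18.5 replicate C took its adjusted p to between 0.0565 and 0.0885. Uqcr10 (chr11:4701973-4704342, reverse strand) read 241, 225 and 255 TPM and then 167, 185 and 159 TPM, for a log2 fold change of -0.49 ± 0.11 (adjusted p = 0.0204). It kept an adjusted p under 0.05 in 12 of 14 alternatives, the exceptions being those without replicate A of either stage (0.0585 and 0.0751).

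On the deposited scale the larger subunits of complex III did not pass. Uqcrc1 and Uqcrc2, the core proteins on the matrix side, went from 127 ± 6.90 to 107 ± 5.24 TPM and from 149 ± 8.47 to 124 ± 6.06 TPM, each without overlap and with adjusted p values of 0.105 and 0.0916. Both fell under median-of-ratios scaling, by 0.71 and 0.72 on the log2 scale (adjusted p = 0.0130 and 0.0143). Uqcrfs1, the Rieske iron-sulfur protein, stood at 206 ± 11.8 and 214 ± 11.6 TPM, with overlap. Uqcrh, the hinge protein, was the 1 member of complex III whose E18.5 libraries (78.4, 64.7 and 69.5 TPM) all exceeded those of E16.5 (64.2, 54.6 and 62.7 TPM), at a log2 fold change of 0.22 ± 0.12 (adjusted p = 0.195) as deposited, which turned to -0.24 under median-of-ratios scaling (adjusted p = 0.329). Cyc1, the nuclear-encoded heme subunit that lies outside the naming rule, read 167 ± 11.2 and 157 ± 11.6 TPM, and was called lower under median-of-ratios scaling (adjusted p = 0.0192) but not as deposited.

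Complex IV, cytochrome c oxidase, has several subunits that exist as a general form and as a form known from particular tissues. None of its 16 tested members passed in limma on the deposited scale, where 2 were higher and 1 lower at an unadjusted p under 0.05. Under median-of-ratios scaling Cox6a1, Cox6b1, Cox7a2, Cox7b and Cox7c fell. Among the subunits around its core, Cox4i1 stood at 180 ± 13.4 TPM at E16.5 and then 201 ± 3.59 TPM at E18.5, Cox5b at 56.5 ± 11.6 and 51.1 ± 13.4 TPM, and Cox5a at 26.4 ± 3.67 and 28.2 ± 1.31 TPM. The change of Cox4i1 was 0.16 as deposited and -0.30 under median-of-ratios scaling. Cox7b, another small subunit, read 320, 310 and 349 TPM at E16.5 against 220, 222 and 297 TPM at E18.5, below without overlap, for a log2 fold change of -0.42 ± 0.15 (adjusted p = 0.0675).

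General forms were the abundant ones in every pair outside ATP synthase. A ratio of the TPM of 2 genes within a library does not depend on the scaling between libraries. For this reason 10 pairs of paralogs were compared, on differences of log2(TPM + 1), by an exact two-sided permutation test. Its smallest p is 0.1 with 3 libraries against 3. The added 1 makes these differences depend on scaling where the minor form is near or below 1 TPM, as for Cox4i2, Cox6a2, Cox7b2, Cox8b and Cox8c. Cox6b2, best known from testis, made up 4.05, 4.03 and 2.48% of Cox6b1 and Cox6b2 together at E16.5 and then 5.91, 5.04 and 5.91% at E18.5. These shares did not overlap, and the exact p was 0.1, the smallest possible, or 0.50 adjusted over the 10 pairs. As a level, Cox6b2 went from 13.4 ± 3.85 to 22.1 ± 2.09 TPM, a log2 fold change of 0.72 ± 0.23 (adjusted p = 0.0507), with an adjusted p of 0.35 under median-of-ratios scaling.

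Cox4i2, the oxygen-responsive alternative to Cox4i1, read 0.888, 1.46 and 1.11 TPM at E16.5 against 3.71, 1.49 and 5.31 TPM at E18.5. Replicates A and C of E18.5 stood well above, while replicate B lay just above the highest E16.5 library. Its log2 fold change was 0.97 ± 0.39 (adjusted p = 0.0918), 1.35 without E18.5 replicate B (adjusted p = 0.0447) and 0.68 without replicate C (adjusted p = 0.217). Under median-of-ratios scaling it was 0.68 (adjusted p = 0.282) and under quantile normalization 0.58 (adjusted p = 0.366). Its share of the pair was 0.477, 0.764 and 0.670% at E16.5 and then 1.80, 0.751 and 2.54% at E18.5 (exact p = 0.3), on 6 to 20 reads per library. Ndufa4l2, known as a target of the hypoxia-inducible factors, made up 20.1, 21.9 and 28.0% of its pair with Ndufa4 at E16.5 against 29.0, 10.6 and 27.9% at E18.5 (exact p = 0.9). The same replicate B of E18.5 was thus the lowest E18.5 library for both genes. Both genes are known from pericytes. Of 14 stellate cell, pericyte and mesenchyme markers tested, 5 rose as deposited, where 26.0% of all genes did. Under median-of-ratios scaling 2 rose, where 6.44% of all genes did. The 15 markers of this list, none at 0 throughout, summed to 163 to 310 TPM at E16.5 and then 302 to 730 TPM at E18.5. In E18.5 replicate B that sum was 484 TPM, between the other two, and its part in these levels was not tested.

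**Figure D5:**
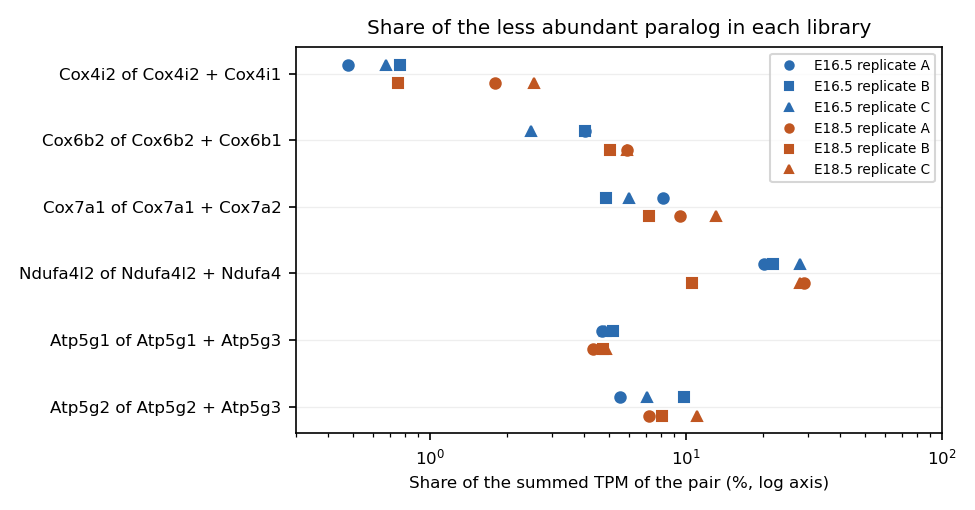
Share of the less abundant paralog in the summed TPM of its pair (%, log axis), with 1 symbol per library (blue E16.5, orange E18.5), for the 6 pairs whose minor form rests on more than 5 reads in every library. Cox6b2 is the pair without overlap between stages, Cox4i2 and Ndufa4l2 scatter most at E18.5, and the ATP synthase pairs overlap.

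Muscle forms were scarce. Cox7a1, the heart and skeletal muscle form of Cox7a2, was the exception, with 8.15 ± 1.79 TPM at E16.5 against 12.8 ± 3.97 TPM at E18.5, or 4.85 to 8.12% and 7.15 to 13.2% of its pair (exact p = 0.2). Cox6a2, the muscle form of Cox6a1, had 7 reads in all, with 0 reads in 4 of 6 libraries, where 3 reads would be 0.515 to 1.09 TPM. Cox8b, likewise of muscle, had 2 to 4 reads in every library, or 1.04 ± 0.388 and 1.09 ± 0.278 TPM. A list of 12 markers of striated muscle and brown fat summed to between 2.63 and 5.89 TPM per library, and none reached the filter. Of the forms known from testis, Cox8c had 5 reads in all and Cox7b2 had 10. Cox7b2 was listed at 0 in all E16.5 libraries and at 4, 2 and 4 reads at E18.5 (1.08, 0.722 and 1.82 TPM). A count of 0 allows up to 3 reads, or 0.646 to 0.710 TPM at E16.5. The E18.5 values carry counting error too: the 2 reads of replicate B lay under the 1.08 TPM that 3 reads would give there. Replicates A and C of E18.5 (1.08 and 1.82 TPM) lay above every E16.5 limit. Whether the reads pooled by stage differ beyond counting error was not tested. The difference of Cox7b2 to Cox7b in log2(TPM + 1) did not overlap between the stages, with the smallest exact p possible of 0.1, or 0.50 adjusted over the 10 pairs. These limits cover counting error only.

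Cox7a2l, which holds complexes III and IV together in supercomplexes and is not a subunit of the monomeric enzyme, rose. It lies at chr17:83501918-83517330 on the reverse strand. Its level was 131, 119 and 108 TPM at E16.5 and then 267, 227 and 159 TPM at E18.5. The stages did not overlap, and the log2 fold change was 0.83 ± 0.20 (adjusted p = 0.0234). Under median-of-ratios scaling it was 0.37 with an adjusted p of 0.194. Leaving out replicate B or C of E16.5, or A or B of E18.5, gave adjusted p values of 0.0536 to 0.0713. Its relatives Cox7a2 (122 ± 7.16 and 116 ± 3.28 TPM) and Cox7a1 did not pass on the deposited scale.

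Complex V makes ATP from the proton gradient. Its summed level was 2574, 2472 and 2526 TPM at E16.5 against 2201, 2226 and 2263 TPM at E18.5, without overlap. The rotary stalk subunit Atp5c1 stood at 235 ± 9.95 and 243 ± 9.12 TPM, with a log2 fold change of 0.05 as deposited and -0.42 under median-of-ratios scaling, where it was called lower (adjusted p = 0.0481). Atp5a1 and Atp5b stood lower at E18.5 without overlap, at log2 fold changes of -0.12 ± 0.11 and -0.31 ± 0.11 (adjusted p = 0.430 and 0.0697), and were called lower under median-of-ratios scaling (adjusted p = 0.0361 and 0.0157). Atp5o, the subunit that links the head to the outer stalk (chr16:91925214-91931687, reverse strand), fell. It read 177, 164 and 175 TPM at E16.5 and then 121, 130 and 139 TPM at E18.5, a log2 fold change of -0.40 ± 0.10 (adjusted p = 0.0290). That call held in 6 of 13 alternatives, and leaving out any library but E18.5 replicate C gave adjusted p values of 0.0601 to 0.108. Of the exon length of Atp5o, 35.6% is shared with genes on the opposite strand. A further 12.3% is shared with another annotated entry, also named Atp5o, on the same strand. Whether reads were counted by strand is not given in the sources used here.

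The membrane rotor of ATP synthase is a ring of identical c subunits, encoded by Atp5g1, Atp5g2 and Atp5g3. Their proteins differ in the targeting sequence that is removed on import and share the mature part. In GENCODE vM21 the last 75 codons of the 3 genes encode the same residues in every pair (75 of 75 identical), while the bases differ. Reads from this stretch can therefore differ between the genes, and the comparison covers this stretch only. The last 225 coding bases of each are shown 5′ to 3′ in the direction of transcription (all on reverse strands of GRCm38), with capitals in Atp5g1 and Atp5g2 for bases that differ from Atp5g3, 45 and 48 in number.
Atp5g1: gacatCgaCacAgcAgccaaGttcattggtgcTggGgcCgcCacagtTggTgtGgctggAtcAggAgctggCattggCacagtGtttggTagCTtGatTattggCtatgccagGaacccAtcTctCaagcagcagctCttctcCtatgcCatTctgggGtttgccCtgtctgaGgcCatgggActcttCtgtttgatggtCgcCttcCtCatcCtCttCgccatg
Atp5g2: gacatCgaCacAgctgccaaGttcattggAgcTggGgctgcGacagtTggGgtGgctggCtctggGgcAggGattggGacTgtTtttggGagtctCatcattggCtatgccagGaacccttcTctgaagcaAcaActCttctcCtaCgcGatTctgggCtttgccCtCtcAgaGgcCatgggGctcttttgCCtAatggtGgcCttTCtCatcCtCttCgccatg
Atp5g3: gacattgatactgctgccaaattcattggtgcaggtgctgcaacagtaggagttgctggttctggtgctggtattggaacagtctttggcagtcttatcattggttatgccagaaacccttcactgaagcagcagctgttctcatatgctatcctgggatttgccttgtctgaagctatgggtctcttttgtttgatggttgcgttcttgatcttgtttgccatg

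Of these transcripts for 1 mature protein, Atp5g3 was by far the most abundant and fell. Atp5g3 (chr2:73908447-73911326) read 224, 221 and 219 TPM at E16.5 against 164, 170 and 171 TPM at E18.5. The stages were far apart relative to their SDs of 2.46 and 3.6 TPM, and the log2 fold change was -0.40 ± 0.09 (adjusted p = 0.0233). Without replicate A or B of either stage the adjusted p was 0.0509 to 0.0892. Atp5g1 (chr11:96068852-96075670) read 11.0, 12.1 and 11.2 TPM and then 7.44, 8.48 and 8.77 TPM, also without overlap, for -0.43 ± 0.16 (adjusted p = 0.0715). Atp5g2 (chr15:102662864-102672352) read 13.2, 24.0 and 16.6 TPM and then 12.7, 15.0 and 21.2 TPM, with overlap. The summed level of the 3 genes was 248, 257 and 247 TPM at E16.5 and then 184, 193 and 201 TPM at E18.5. Atp5g3 held 85.9 to 90.3% of that sum at E16.5 against 85.1 to 89.1% at E18.5. The ratios of Atp5g1 and Atp5g2 to Atp5g3 overlapped between the stages (exact permutation p = 0.6 and 0.4). Annotated copies of at least 98% identity cover 88.2% of the Atp5g2 transcript and 11.1% of that of Atp5g1, so reads of Atp5g2 in particular may have been lost or divided in the counting.

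Promoters of respiratory genes are known to carry sites for NRF1, for ETS factors such as GABP, and for YY1. RefSeq sequences of 300 bases, from 250 before to 50 after the start (GRCm38.p6), were found for 66 members and searched on both strands for GCGCATG (NRF1), CCGGAAG (ETS) and AAGATGG (YY1). At least 1 of these 3 motifs was found in 30 of 66 members (45.5%), against 27.6% of 10875 promoters of protein-coding genes averaging at least 1 TPM and 17.5% of all 32851 promoters. The NRF1 motif was in 19.7% of members against 6.75% of those protein-coding genes, the ETS motif in 22.7% against 17.1%, and the YY1 motif in 13.6% against 6.99%. No member held all 3 kinds, and 7 held at least 2. The 4 most abundant of these 7 are printed to show how the motifs sit, as the 250 bases before the start, 5′ to 3′ on the strand of the gene, with NRF1 and ETS motifs on either strand in capitals. Sdhb (chr4:140961021-140961270, forward) has the NRF1 motif 53 to 47 bases before the start. Cox6a1 (chr5:115348959-115349208, reverse) has a palindromic NRF1 site read on both strands, 162 to 153 bases before, and the ETS motif 16 to 10 bases before. Uqcr11 (chr10:80406822-80407071, reverse) has the ETS motif 66 to 60 bases before. Ndufb6 (chr4:40279422-40279671, reverse) has the NRF1 motif 77 to 71 and the ETS motif 232 to 226 bases before. The further motifs of Sdhb and Uqcr11 lie past the start.
Sdhb: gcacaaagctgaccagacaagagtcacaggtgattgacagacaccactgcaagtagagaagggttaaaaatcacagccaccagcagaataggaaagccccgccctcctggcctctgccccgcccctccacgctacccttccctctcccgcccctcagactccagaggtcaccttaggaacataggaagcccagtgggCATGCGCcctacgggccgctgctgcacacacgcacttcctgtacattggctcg
Cox6a1: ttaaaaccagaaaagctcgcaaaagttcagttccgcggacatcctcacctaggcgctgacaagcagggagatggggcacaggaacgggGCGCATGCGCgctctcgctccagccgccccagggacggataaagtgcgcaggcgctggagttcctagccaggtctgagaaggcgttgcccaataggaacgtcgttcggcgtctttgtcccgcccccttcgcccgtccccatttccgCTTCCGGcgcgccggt
Uqcr11: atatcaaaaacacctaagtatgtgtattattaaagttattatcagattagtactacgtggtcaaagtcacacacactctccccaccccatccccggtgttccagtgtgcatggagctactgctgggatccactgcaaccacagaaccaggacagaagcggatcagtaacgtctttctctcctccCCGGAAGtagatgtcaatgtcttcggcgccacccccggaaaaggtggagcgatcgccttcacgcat
Ndufb6: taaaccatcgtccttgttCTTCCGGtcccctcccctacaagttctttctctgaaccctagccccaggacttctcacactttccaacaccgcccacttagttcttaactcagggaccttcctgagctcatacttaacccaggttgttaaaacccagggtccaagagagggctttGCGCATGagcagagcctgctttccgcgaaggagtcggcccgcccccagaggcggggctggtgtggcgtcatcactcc

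On the deposited scale none of these 4 genes passed the test. Cox6a1 had 104 ± 17.6 TPM at E16.5 and then 86.8 ± 6.53 TPM at E18.5, Uqcr11 60.6 ± 4.76 and 51.9 ± 8.33 TPM, and Ndufb6 32.0 ± 5.99 and 27.2 ± 0.844 TPM. All 4 fell under median-of-ratios scaling, with adjusted p values of 0.0342 for Sdhb, 0.0132 for Cox6a1, 0.0303 for Uqcr11 and 0.0170 for Ndufb6. Of the 6 members that passed as deposited, 5 had a promoter in the table and none of the 5 held a motif. The median log2 fold change was -0.12 over 30 tested members with a motif and 0.05 over 35 without. These are matches of letters only, and binding was not measured.

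Genes that work with the chain were taken as further lists, to be read against 26.0% of all genes higher and 5.22% lower as deposited. Under median-of-ratios scaling the shares of all genes were 6.44% higher and 10.5% lower. Of 48 tested assembly factors, 3 rose and 1 fell, with a median of 0.11: Ttc19 of complex III (0.61) and Coa6 and Coa7 of complex IV (0.58 and 0.53) were higher and Lrpprc, which stabilises mitochondrial mRNA, was lower (-0.50). Under median-of-ratios scaling 8 fell, Lrpprc among them, and the 3 rises were not called (0.16 for Ttc19, 0.13 for Coa6 and 0.09 for Coa7, adjusted p = 0.234, 0.629 and 0.557). Of 12 carriers and subunits outside the naming rule, Slc25a4, an adenine nucleotide carrier, rose (0.37), whereas its paralog Slc25a5 (-0.36) and Etfa, which delivers electrons from fatty acid oxidation (-0.50), fell. Under median-of-ratios scaling Slc25a4 turned to -0.09 and lost its call (adjusted p = 0.416), while Slc25a5 (-0.83) and Etfa (-0.97) kept theirs. The citric acid cycle had 1 higher and 2 lower of 15, with a median of 0.01. Pdha1 of pyruvate dehydrogenase was higher (0.45) and Suclg1 was among the lower (-0.67), and under median-of-ratios scaling 11 of 15 fell and Pdha1 was not called (-0.0048, adjusted p = 0.978).

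Regulators of mitochondrial biogenesis had a median of 0.38 over 14 genes, near that of all genes, and 4 rose, a share close to the 26.0% of all genes. Yy1 (0.74) and Tfb2m, a factor of mitochondrial transcription (0.68), were the highest, followed by Esrra (0.61) and Ppargc1a (0.55), while Tfam, which packages mitochondrial DNA, stood at 26.6, 27.2 and 27.1 TPM and then 25.3, 27.5 and 25.6 TPM. Of these 4, Yy1 alone also passed under median-of-ratios scaling (0.28, adjusted p = 0.0496). On that scale 3 other regulators of the 14 fell, where 10.5% of all genes did. Among 12 hypoxia-response genes 4 rose and 2 fell: Vegfa (1.40) and Egln3 (0.97) were higher, and the glycolytic Ldha (-1.67) and Pgk1 (-0.65) were lower. Ldha, which turns pyruvate into lactate, read 806, 824 and 1077 TPM at E16.5 against 284, 188 and 412 TPM at E18.5, the widest change among these lists. These 4 changes kept their call under median-of-ratios scaling. Log2 fold changes in these lists are from the same limma fit over all genes.

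Short, multi-copy genes limit comparison between members. Of the 84, 14 have an annotated copy of at least 98% identity over at least 100 bases, 19 copies in all, of which 16 are pseudogenes. For 6 members such copies cover more than 50% of the transcript: Atp5g2 (88.2%), Ndufs3 (75.7%), Atp5h (71.1%), Uqcrb (62.8%), Cox7c (58.3%) and Atp5l (57.4%). The 6 members that passed the test are not among the 14. Genes that overlap a member at the same place, such as the other entry named Atp5o, were not counted as copies. The TPM were divided by the joint length of all exons, which was a median of 1.45 times the main transcript and over 3 times for 13 members, up to 11.8 times for Atp5l (5.97 ± 0.0952 and 6.40 ± 0.716 TPM). Levels of different members are therefore per base of annotated exon, and the divisor of a gene is the same at both stages.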

How the data were processed

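RNA of 6 libraries (3 per stage) was compared. The authors deposited TPM, made from trimmed reads by HISAT2 alignment to GRCm38 and HTSeq-count on GENCODE genes. They sum to 1000000 per library. The submitters' processing notes also name FastQC 0.11.7, HISAT2 2.1.0, Bowtie and HTSeq 0.5.4p3. Gene names and places came from GENCODE vM21, which held 52403 of the listed identifiers. TPM times exon length gave whole reads (within 0.01) for 100% of nonzero values of genes with the same version, and for 69 of the 84 members. Values of log2(TPM + 1) of genes averaging at least 1 TPM were tested with limma 3.58.1 (R 4.3.3, trended eBayes). The log2(TPM + 1) scale understates changes of low genes. The fit was checked on simulated libraries without a shift of the median gene between the stages, so that check does not cover the scaling between libraries. Paralog ratios used exact permutation tests in Python 3.11.15. Copies were sought with blastn 2.17.0 among annotated transcripts, in place of the genome planned.

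Members and lists were chosen with earlier results of these data known. Named were paralogs, core subunits, members past the threshold, the 3 highest and lowest, and untested members; from each list, the 2 largest changes each way past the threshold. Some genes that this rule names are not reported here. Other genes were named after their values were seen. Alternatives were a pseudocount of 0.1, no filter, a 5 TPM filter, median-of-ratios and quantile scaling, no trend, voom on recovered reads, a replicate block, and leaving out each library.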

Additional observations from a re-analysis of the deposited data

How the results depend on the processing

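The 6 calls kept their direction in every alternative and lost the threshold in some of them: Uqcr10 held in 12 of 14, Ndufb2 in 10 of 14, Atp5g3 in 9 of 14, Cox7a2l in 8 of 13, Uqcrq in 7 of 14 and Atp5o in 6 of 13. Scaling changed the counts most. Members higher and lower numbered 2 and 4 as deposited, 0 and 37 under median-of-ratios scaling, 1 and 18 under quantile normalization and 1 and 11 with voom on recovered reads. No filter on low values gave 2 lower (1.88% of all genes) and no trend 1 lower (4.58%). Leaving out 1 library gave 0 to 2 higher (4.63 to 20.8% of all genes) and 0 to 6 lower (1.94 to 4.79%). Without E18.5 replicate A limma called 0 in both directions (3 higher and 6 lower at an unadjusted p under 0.05), and without E16.5 replicate A 0 lower (4 unadjusted). The cause was not tested. Correlations over 3 libraries a stage cannot settle whether the letters A, B and C pair the libraries. Same-letter correlations of deviations from the stage means were -0.04, 0.08 and 0.14, against -0.15 to 0.08 between different letters. Not every library correlated best with its own letter. With the letter as a replicate block, 2 were higher (27.5% of all genes) and 6 lower (5.08%).

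The members' median was -0.47 under median-of-ratios scaling, -0.28 under quantile normalization, -0.15 with voom and -0.052 to -0.0016 without 1 library. Its distance from the all-gene median was -0.48 with a pseudocount of 0.1, -0.21 without a filter, -0.48 and -0.35 under those scalings, -0.49 with voom and -0.49 to -0.38 without 1 library.

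Several small changes that were not called on the deposited scale turned sign. Ndufv1, Atp5c1, Cox6b1, Cox7c and Ndufs6 were among those then called lower under median-of-ratios scaling. Under median-of-ratios scaling the log2 fold changes were -0.33 for Ndufs7, -0.42 for Ndufv1, -0.41 for Uqcrfs1, -0.30 for Cox4i1, -0.35 for Cox5a, -0.42 for Atp5c1, -0.43 for Cox6b1, -0.19 for Cox8b, -0.31 for Ndufa4l2 and -0.18 for Ndufa4. Quantile normalization gave -0.16 for Ndufs7, -0.18 for Ndufv1, -0.033 for Uqcrfs1, -0.26 for Cox5a, -0.024 for Atp5c1, -0.023 for Cox6b1, -0.30 for Cox8b, -0.28 for Ndufa4l2 and -0.048 for Ndufa4. With voom they were -0.018 for Ndufs7, -0.088 for Uqcrfs1, -0.043 for Cox5a, -0.090 for Atp5c1, -0.11 for Cox6b1 and -0.056 for Ndufa4l2. Leaving out 1 library gave -0.041 to 0.010 for Ndufs1, -0.056 to 0.037 for Ndufs3, -0.013 to 0.10 for Ndufv1, -0.0043 to 0.19 for Cox5a, -0.35 to 0.0074 for Cox5b, -0.10 to 0.14 for Cox8b, -0.18 to 0.024 for Cox8a, -0.30 to 0.68 for Ndufa4l2 and -0.32 to 0.098 for Atp5g2. Changes of log2 paralog ratios ranged without 1 library from -0.12 to 0.60 for Cox6a2 to Cox6a1, -0.11 to 0.23 for Cox8b to Cox8a, -0.42 to 0.19 for Cox8c to Cox8a, -0.45 to 0.35 for Ndufa4l2 to Ndufa4 and -0.069 to 0.0087 for Atp5g1 to Atp5g3. Of the other named members, 364 of 440 values under alternatives kept direction and side of the threshold, 35 newly passed it and 41 turned sign.

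Depth limited the rarest forms: Cox6a2, Cox7b2, Cox8b and Cox8c rested on 5 to 15 reads over all libraries.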
